A study of Mus musculus with 10 samples.

Results

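The heat shock protein and DnaJ genes encode the main protein-folding machinery of animal cells, and their transcripts were followed here in sorted retinal ganglion cells, the neurons that carry the output of the retina. Members were taken by symbol: every entry of the expression table whose symbol begins with Hspa, Hspb, Hspd, Hspe, Hsph, Hsp90, Dnaja, Dnajb or Dnajc followed by its number. This gave 72 genes of 23258 symbols. The cells came from C57BL/6 mice at postnatal day 6 and carried a green fluorescent protein reporter under Hb9, which marks a subset of ganglion cells in the retina. There were 5 libraries of wild-type Hb9-GFP cells and 5 of Satb1-/- Hb9-GFP cells, called knockout here, each from about 1000 sorted cells and, within a genotype, from separate litters. Every library, controls included, was thus sorted for reporter-positive cells, and its cDNA was amplified before sequencing. The question put by the design is which genes of these neurons change their transcript level in the absence of Satb1, a nuclear protein that organizes chromatin.

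Chaperones of the HSP70 family (Hspa genes) bind unfolded stretches of other proteins in cycles of ATP binding and hydrolysis. DnaJ proteins (HSP40) bring them their clients and trigger the hydrolysis step, and HSP110 proteins (Hsph1, Hspa4 and Hspa4l) exchange the nucleotide. HSP90 proteins act later, on near-native clients such as kinases and receptors, HSP60 and HSP10 form a folding chamber in mitochondria, and small heat shock proteins (Hspb genes) hold unfolding proteins without using ATP. Each family has constitutive members and members induced by the heat shock factor HSF1, and the endoplasmic reticulum (ER) has its own set under control of the unfolded protein response. Neurons depend on this machinery for long-lived axonal and synaptic proteins.

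Levels are given in TPM, the number of transcripts of a gene per fixed number of transcripts in the library, which are scaled for transcript length and can be set side by side between genes. Of the 72 members, 62 reached at least 1 TPM in at least 5 libraries and were tested for a genotype difference, and 47 reached 1 TPM in every library. Dnajb8, Dnajc22, Dnajc5g and Hspb2 were listed at 0 in every library, and Dnajb13, Dnajb7, Dnajc28, Dnajc5b, Hspb3 and Hspb9 were the other members below the filter. Among the tested members, 10 had a median of at least 100 TPM, 38 a median from 10 to 100 TPM and 14 a lower median. TPM keeps no read depth, so the depth is unknown and a gene listed at 0 may also be a failed estimate.

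Facts of the libraries bear on all that follows. All 14 markers of retinal ganglion cells passed the filter and 13 were above 0 in every library, while Pou4f3 was listed at 0 in knockout 5. They summed to 13969 to 100548 TPM, and to 6167 to 12397 TPM without the neurofilament gene Nefl. Summed rod markers lay between 15.8 and 601 TPM, microglial markers between 4.14 and 2746 TPM, and markers of Müller glia and astrocytes between 86.5 and 7831 TPM. Immediate early genes, which also respond to tissue dissociation, summed to 84.8 to 627 TPM. Satb1 itself was at 304, 189, 414, 132 and 38.6 TPM in wild-type libraries 1 to 5 and at 170.4, 126, 83.1, 34.9 and 24.1 TPM in knockout libraries 1 to 5, so the genotypes overlapped. On the log2(TPM + 1) scale it was lower in the knockout by -1.25 (SE 0.71), with a two-sided exact permutation p of 0.135 over 252 divisions of the libraries. Which stretch of the gene is deleted is not given in the sources used here. This level therefore does not check the labels. Wild-type 5, knockout 4 and knockout 5 stood apart from the other 7 libraries, on a principal component computed without the members. The second component, over all tested genes, set wild-type 4 alone, with a score of -145 beside 6.87 to 43.5 in the other 9. Wild-type 4 was the lowest library for 12 members, beside 19 for knockout 5 and 8 for wild-type 5. Without wild-type 4, 0 members were called by limma, and the members' median difference was -0.30. In pooled sorted cells, fewer cells of a type and less RNA per cell cannot be told apart.

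The most abundant members were cytosolic HSP70 and HSP90 genes. Hspa8 (Hsc70, the constitutive HSP70, which also strips clathrin from vesicles; chr9:40800984-40810087, plus strand, build GRCm38) was at 1527, 1860.5, 1622, 993 and 1495 TPM in wild-type libraries 1 to 5 and at 1472, 1772, 2492, 2222 and 1832 TPM in knockout libraries 1 to 5. All 10 libraries lay between 993 and 2492 TPM, with the lowest value in wild-type 4 and the highest in knockout 3, and the genotypes overlapped. The means were 1499 ± 317 TPM among wild-type and 1958 ± 401 TPM among knockout libraries (mean ± SD, n = 5 each), and the difference, knockout minus wild-type on the log2(TPM + 1) scale used for every difference below, was 0.39 (SE 0.46, 95% interval -0.57 to 1.35). Hspa8 had the smallest within-genotype SD of the tested members, 0.32 on the log2 scale, beside a median of 1.11 over the members and 1.2 over all tested genes. Every adjusted p given for a member comes from limma with Benjamini-Hochberg adjustment over 11744 genes. These ran from 0.992 to 0.998, so no member passed the threshold of 0.05, and they are not repeated for each gene.

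Hsp90ab1, the constitutive cytosolic HSP90 (chr17:45567775-45573271, minus strand), was at 1706, 1063, 4092, 1454 and 1432 TPM in wild-type libraries 1 to 5 and at 1459, 1863, 1674, 1361 and 1139 TPM in knockout libraries 1 to 5. Wild-type 3 was the highest, and the other 9 libraries lay between 1063 and 1863 TPM. Its difference was -0.23 (SE 0.50). Hsp90aa1, the inducible cytosolic HSP90 (chr12:110690605-110702728, minus strand), was at 1523, 1112, 1489.9, 617 and 289 TPM in wild-type libraries 1 to 5 and at 1056, 1093, 677, 639 and 509 TPM in knockout libraries 1 to 5. The lowest library was wild-type 5 and the 3 highest were also wild-type, so the knockout values lay inside the wild-type range, and the difference was -0.17 (SE 0.55). After each library was centred on its median these differences became 0.15 for Hsp90ab1 and 0.21 for Hsp90aa1. The constitutive form exceeded the inducible form in 9 of 10 libraries, the exception being wild-type 2, and the ratio of Hsp90aa1 to Hsp90ab1 ran from 0.202 to 1.05. Together Hspa8, Hsp90ab1 and Hsp90aa1 made up 45.6% to 65.4% of the TPM of all members in 9 libraries and 15.4% in knockout 2. All members together took 0.547% to 1.10% of the TPM of 9 libraries and 3.06% of knockout 2.

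**Figure D1:**
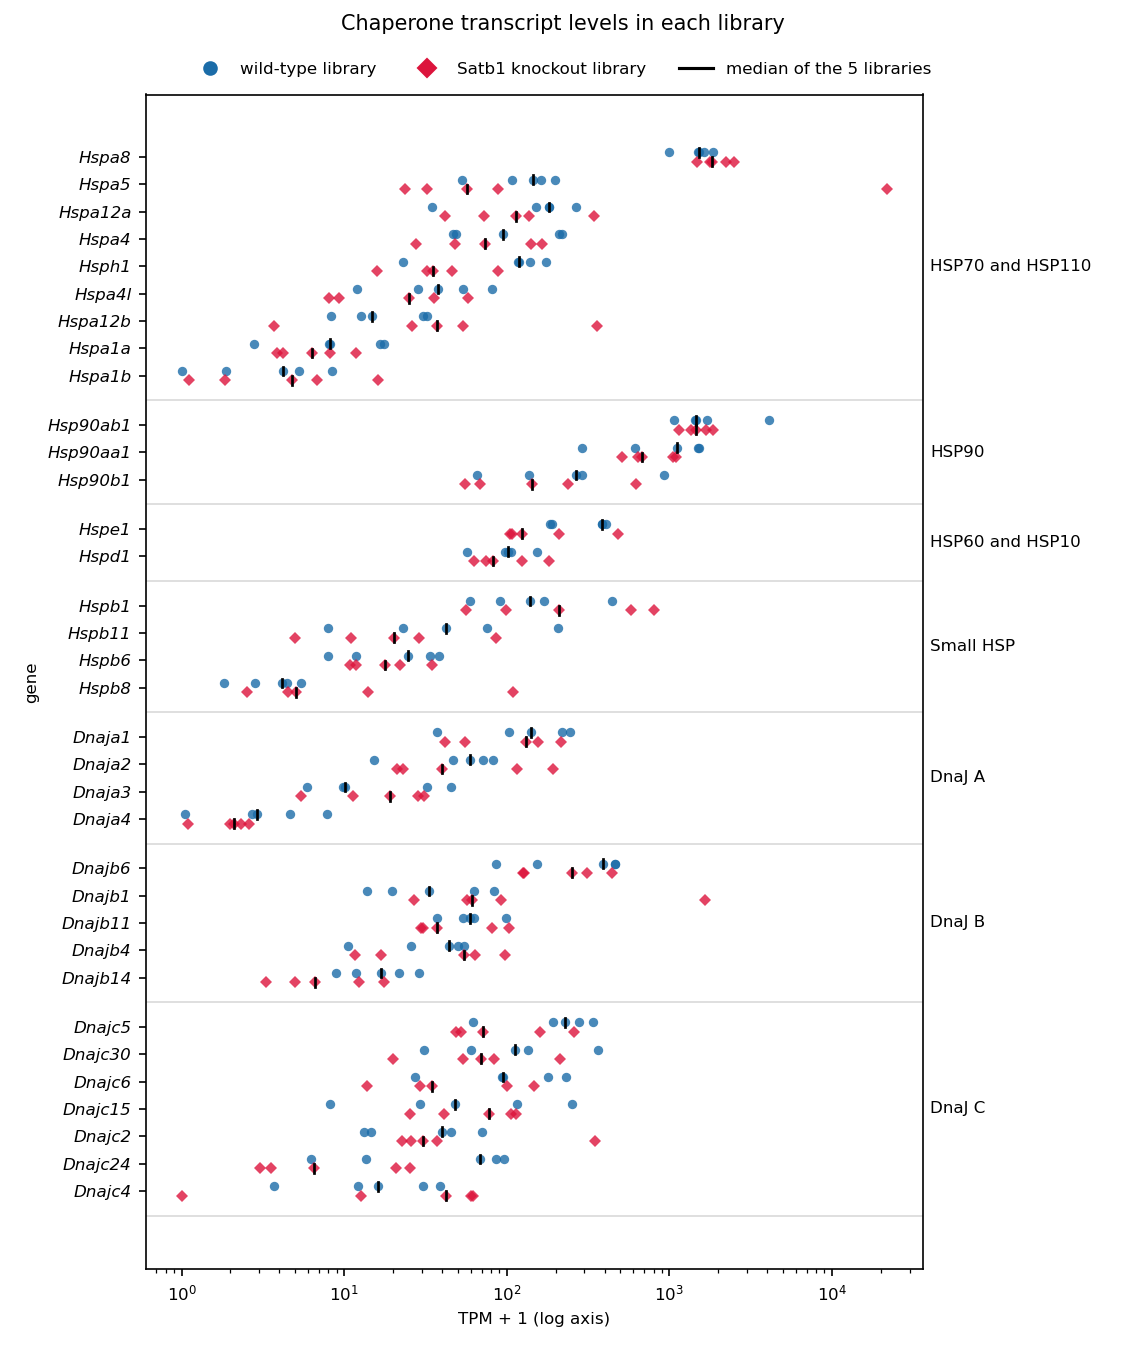
Level of the most abundant and the inducible chaperone genes in each library, as TPM + 1 on a log axis, grouped by family; circles are the 5 wild-type libraries, diamonds the 5 knockout libraries and black bars the medians. Hspa8 sits in a narrow band from 993 to 2492 TPM, while Hspa5 and Dnajb1 each have 1 knockout library far to the right of the other 9.

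Shared sequence limits some of these levels. In the GENCODE M21 transcripts, 67.3% of the 50-base words of Hspa8 also occur in another gene, as do 50.1% of those of Hsp90aa1, 48.8% of Hspb1, 39.7% of Hspd1 and 36.1% of Hspe1. The near-identical pair Hspa1a and Hspa1b share 62.3% of the words of Hspa1b. How reads that match several genes were treated is not given in the sources used here. Levels of these genes are therefore uncertain.

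The ER members are shown first by their promoters, because Hspa5, Hsp90b1 and Dnajc3, all ER genes, were the only ones of the 58 members with a RefSeq promoter entry that held the ER stress element. This element is bound by ATF6 in the unfolded protein response. Its letters as searched were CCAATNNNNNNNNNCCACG, on both strands, in the 250 bases before and 50 after each annotated start. It was found in 5.17% of the member genes and in 0.137% of all 27025 genes with an entry. A match of letters is a description of the sequence and not a measured binding site. The 250 bases before each start are printed 5′ to 3′ on the strand of the gene, from RefSeq on build GRCm38.p6, with the element in capitals.
Hspa5: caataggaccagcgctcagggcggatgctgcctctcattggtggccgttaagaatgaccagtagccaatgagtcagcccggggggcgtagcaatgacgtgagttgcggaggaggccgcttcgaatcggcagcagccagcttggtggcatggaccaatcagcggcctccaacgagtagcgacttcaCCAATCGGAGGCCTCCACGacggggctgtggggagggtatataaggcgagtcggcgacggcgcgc
Hsp90b1: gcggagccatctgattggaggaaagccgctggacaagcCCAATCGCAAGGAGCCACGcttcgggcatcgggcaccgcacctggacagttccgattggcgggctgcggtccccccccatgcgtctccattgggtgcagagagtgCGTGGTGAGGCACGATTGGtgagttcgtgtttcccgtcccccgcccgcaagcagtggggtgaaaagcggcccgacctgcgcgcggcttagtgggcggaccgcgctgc
Dnajc3: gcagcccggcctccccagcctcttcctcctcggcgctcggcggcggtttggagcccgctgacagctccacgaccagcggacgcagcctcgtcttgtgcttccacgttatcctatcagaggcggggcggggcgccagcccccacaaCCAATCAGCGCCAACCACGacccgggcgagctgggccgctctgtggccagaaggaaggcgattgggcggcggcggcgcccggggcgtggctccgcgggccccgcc
The windows are chr2:34771840-34772089 (plus strand), chr10:86705445-86705694 (minus strand) and chr14:118937682-118937931 (plus strand). Hsp90b1 has 1 copy on each strand, and the element begins 65 bases before the start of Hspa5 and 105 before that of Dnajc3.

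Hspa5 encodes BiP, the HSP70 of the ER lumen (chr2:34771970-34777547, plus strand). It was at 145, 197, 162, 107 and 51.8 TPM in wild-type libraries 1 to 5 and at 55.6, 21879, 86.8, 31.4 and 22.8 TPM in knockout libraries 1 to 5. Knockout 2 was 111-fold above the next highest library, wild-type 2, while the other 4 knockout libraries lay between 22.8 and 86.8 TPM, within or below the wild-type range of 51.8 to 197 TPM. Hspa5 was the third most abundant gene of knockout 2 and took 2.19% of its TPM. The difference was 0.33 (SE 1.27, 95% interval -2.33 to 2.98) with all libraries and -1.46 (SE 0.66, limma adjusted p = 0.921) without knockout 2, so 1 library set its sign. Without Hspa5, the members summed to 7947 ± 2297 TPM among wild-type and 7697 ± 1431 TPM among knockout libraries (mean ± SD, n = 5 each).

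The other ER members had no peak of that size in knockout 2. Hsp90b1 (GRP94, the HSP90 of the ER; chr10:86690209-86705509, minus strand) was at 288, 927, 265, 135 and 64.9 TPM in wild-type libraries 1 to 5 and at 622, 239, 142, 67.3 and 54.0 TPM in knockout libraries 1 to 5. It was highest in wild-type 2 and knockout 1, knockout 2 was the fifth highest library, and the difference was -0.60 (SE 0.74). Dnajc3 (P58IPK, an ER DnaJ protein that serves BiP; named after its values were seen) was at 7.85, 8.11, 4.53, 7.93 and 3.52 TPM in wild-type libraries 1 to 5 and at 6.99, 12.9, 4.80, 1.21 and 1.42 TPM in knockout libraries 1 to 5. Knockout 2 was the highest library for Dnajc3, though by less than 2-fold over wild-type 2. Of 34 ER genes, counting 13 members and 21 further ER folding and unfolded protein response genes, knockout 2 was the highest library for Hspa5, Dnajc3, Pdia4, Pdia6 and Ern1 and the lowest for Ddit3, Herpud1 and Dnajb12. Ddit3 (CHOP, the transcription factor of late ER stress) was at 0.577 TPM in knockout 2, Herpud1 (ER-associated degradation) at 8.18 TPM, and the disulfide isomerases Pdia4 and Pdia6 at 35.9 and 64.4 TPM. These neighbours of Hspa5 were likewise chosen after their values were seen. Over the 13 ER members, 10 were lower and 3 higher in the knockout with a median difference of -0.48, none called; the split was 7 to 6 after median centring.

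**Figure D2:**
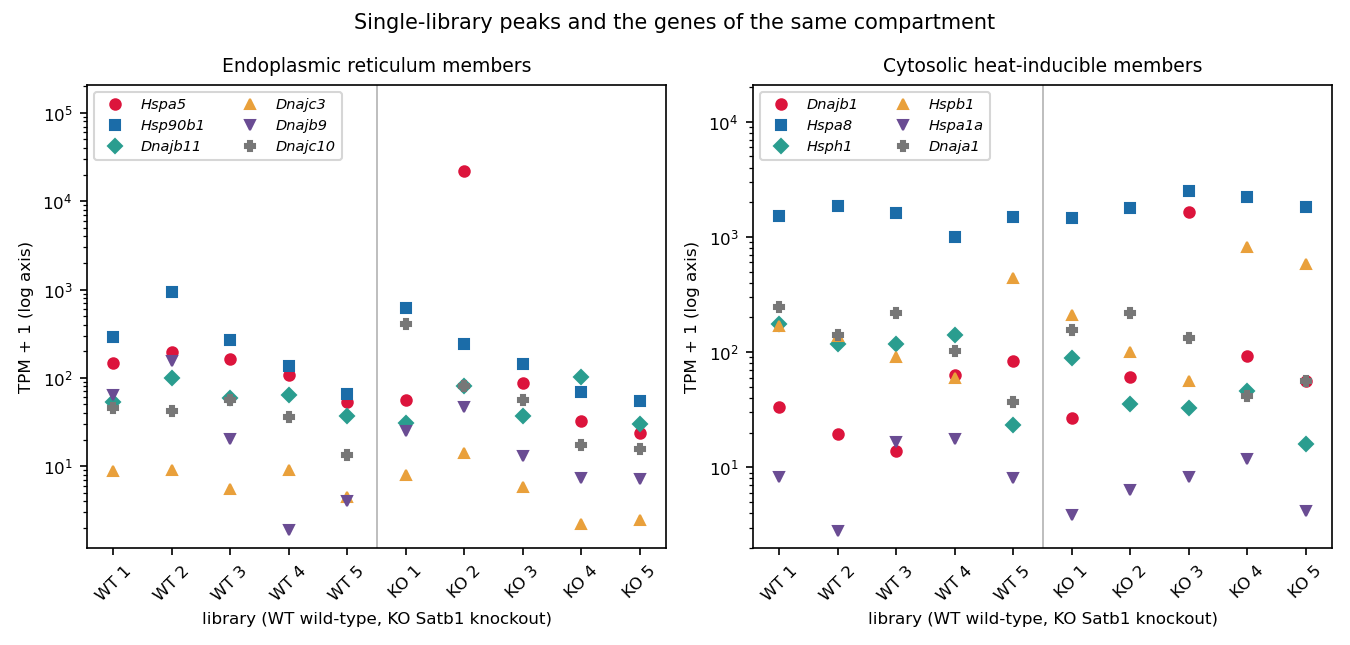
TPM + 1 on a log axis in each library (WT 1 to 5 wild-type, KO 1 to 5 knockout). On the left are 6 ER members and on the right 6 cytosolic members of the heat-inducible list, which includes the constitutive Hspa8. Hspa5 stands far above the other ER genes in KO 2, and Dnajb1 far above its other 9 libraries in KO 3, while Hsph1 and Hspa1a do not peak in KO 3.

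Mitochondrial folding is represented by a gene pair that lies head to head on chromosome 1, Hspd1 (HSP60) and Hspe1 (HSP10, the lid of the HSP60 chamber). The sequence between a RefSeq start of Hspd1 and that of Hspe1 is printed because it lies before both of these starts. It held the heat shock element, the HSF1 motif, with 2 overlapping matches. Another RefSeq entry of Hspd1, with its window at chr1:55088194-55088493, held no match. The searched letters were GAANNTTCNNGAA and, for the other strand, TTCNNGAANNTTC. Dnajb6, Hspd1, Hspe1 and Hsph1 held it, 6.90% of the 58 member genes, beside 0.662% of all 27025. The matches of Hspd1 and Hspe1 are the same stretch. Of the heat-inducible members, Hspa1a, Hspa1b, Hspa4l, Hspb1, Dnaja1, Dnajb1 and Dnajb4 held no match to these fixed letters. Hspa8, Hsp90aa1 and Hsp90ab1 had no promoter entry to search. The stretch chr1:55087933-55088147 of GRCm38.p6 from RefSeq, on the strand of Hspe1 and with the overlapping elements in capitals, reads as follows.
Hspd1 and Hspe1: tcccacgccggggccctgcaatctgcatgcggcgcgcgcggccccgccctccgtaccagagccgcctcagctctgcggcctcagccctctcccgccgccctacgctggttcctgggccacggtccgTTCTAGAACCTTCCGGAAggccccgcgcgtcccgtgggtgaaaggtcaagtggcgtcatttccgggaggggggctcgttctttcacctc
Hspd1 lies at chr1:55077835-55088243 (minus strand) and Hspe1 at chr1:55088132-55091307 (plus strand) in GENCODE, so their annotated ends overlap by 112 bases, and use of strand in the counting is not given in the sources used here.

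Hspe1 was at 185, 406, 189.9, 382 and 383 TPM in wild-type libraries 1 to 5 and at 107, 479, 208, 104 and 124 TPM in knockout libraries 1 to 5, and its 3 highest libraries besides knockout 2 were wild-type 2, 4 and 5. Its means were 309 ± 112 TPM among wild-type and 204 ± 159.5 TPM among knockout libraries (mean ± SD, n = 5 each) and its difference -0.78 (SE 0.57). Hspd1 was at 96.5, 101, 152, 56.0 and 106 TPM in wild-type libraries 1 to 5 and at 73.1, 123, 179.9, 81.3 and 61.7 TPM in knockout libraries 1 to 5. The genotypes overlapped, and the difference of Hspd1 was -0.02 (SE 0.55), 0.35 after median centring. Hspe1 exceeded Hspd1 in 10 of 10 libraries, but the ratio moved from 1.16 in knockout 3 to 6.82 in wild-type 4, so the 2 transcripts did not keep a fixed ratio.

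Further mitochondrial members were named by their level or a missing value. Dnaja3 (Tid1, a mitochondrial DnaJ protein) ranged over 4.47 to 44.4 TPM with a difference of 0.06 (SE 0.79). Dnajc15, a DnaJ protein of the inner membrane import motor, was at 250.4, 114, 7.18, 28.1 and 47.2 TPM in wild-type libraries 1 to 5 and at 106, 24.5, 40.3, 76.3 and 114 TPM in knockout libraries 1 to 5. Its highest and lowest libraries were both wild-type, and the difference was 0.32 (SE 0.80). Dnajc30, a mitochondrial protein tied to ATP synthase, was at 59.6, 134, 30.0, 362 and 112 TPM in wild-type libraries 1 to 5 and at 19.1, 52.6, 82.2, 212 and 68.3 TPM in knockout libraries 1 to 5, highest in library 4 of each genotype, with a difference of -0.60 (SE 0.73). Dnajc4 was listed at 0 in knockout 5, although its median was above 10 TPM, and was at 37.8, 15.2, 29.4, 2.73 and 11.2 TPM in wild-type libraries and 11.7, 59.7, 61.1 and 41.5 TPM in knockout libraries 1 to 4. Among the 9 tested mitochondrial members 5 were lower and 4 higher, none called, and 4 and 5 after median centring.

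The HSP110 and inducible HSP70 genes include Hsph1, the member with the second smallest unadjusted p, 0.0612 by limma. Hsph1 (HSP110, the disaggregase partner of HSP70; chr5:149614287-149636376, minus strand) was at 174, 117, 116, 139 and 22.1 TPM in wild-type libraries 1 to 5 and at 87.8, 34.1, 31.4, 45.3 and 15.0 TPM in knockout libraries 1 to 5. Of the wild-type libraries 4 lay at or above 116 TPM and all knockout libraries were below 88 TPM, but wild-type 5 at 22.1 TPM placed the groups in overlap. The means were 113 ± 56.2 TPM among wild-type and 42.7 ± 27.4 TPM among knockout libraries (mean ± SD, n = 5 each), and the difference was -1.34 (SE 0.67, 95% interval -2.75 to 0.07). Without wild-type 5 it was -1.85 (limma adjusted p = 0.651). That fit keeps knockout 4 and knockout 5 of the libraries that stood apart, so this division then lies in the knockout alone. The whole table moved in the same fit. The median over all tested genes went from -0.31 to -0.48, and genes below an unadjusted limma p of 0.05 from 389 to 845. Its paralogs Hspa4 and Hspa4l differed by -0.42 (SE 0.67) and -0.78 (SE 0.74), with Hspa4 at 209.7, 94.3, 216, 45.9 and 47.6 TPM in wild-type libraries 1 to 5 and at 164, 139.5, 72.6, 47.0 and 26.7 TPM in knockout libraries 1 to 5.

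Hspa1a, the main heat-inducible HSP70 (chr17:34969190-34972156, minus strand), was at 7.18, 1.78, 15.7, 16.7 and 7.11 TPM in wild-type libraries 1 to 5 and at 2.84, 5.31, 7.24, 10.7 and 3.18 TPM in knockout libraries 1 to 5. In no library did it reach 2% of the level of Hspa8, and the difference was -0.49 (SE 0.75). Hspa1b (chr17:34956436-34959238, minus strand) ranged from a listed 0 in wild-type 1 to 15.2 TPM in knockout 2, with a difference of 0.33 (SE 0.81). The atypical HSP70 gene Hspa12a was at 265, 150.5, 181, 181 and 33.5 TPM in wild-type libraries 1 to 5 and at 113, 344, 136, 41.0 and 71.3 TPM in knockout libraries 1 to 5 and differed by -0.30 (SE 0.67). Its paralog Hspa12b was at 13.9, 11.6, 7.30, 31.2 and 29.4 TPM in wild-type libraries 1 to 5 and at 356, 36.2, 25.2, 53.0 and 2.70 TPM in knockout libraries 1 to 5, where knockout 1 was 6.71-fold above the next library. The difference of Hspa12b was 1.10 (SE 0.93), and 0.28 without knockout 1.

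Hsf1, the master activator of the inducible genes, averaged 15.6 ± 6.72 TPM among wild-type and 37.2 ± 30.3 TPM among knockout libraries (mean ± SD, n = 5 each). It was highest in knockout 2, at 88.8 TPM, and its difference was 1.02 (SE 0.69, limma adjusted p = 0.992). The heat-inducible list, 13 members taken as known HSF1 targets, also holds Hspa8 and Hsp90ab1, described above as constitutive. Of these 13, 8 had a lower and 5 a higher value in the knockout, none called, with a median difference of -0.17. After median centring the split was 4 lower and 9 higher.

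Hspb1 was the most abundant small heat shock gene. Hspb1 (HSP27, an actin-binding holdase induced by stress and axon injury; chr5:135887919-135889563, plus strand) was at 169, 138, 90.4, 58.4 and 442 TPM in wild-type libraries 1 to 5 and at 209, 98.2, 55.2, 809 and 579 TPM in knockout libraries 1 to 5. The 3 highest libraries were wild-type 5, knockout 4 and knockout 5, the libraries that stood apart. Its difference was 0.66 (SE 0.74) over all libraries and -0.01 without those 3. Hspb8, the partner of BAG3 in selective autophagy, was at 1.84, 3.13, 3.42, 0.821 and 4.44 TPM in wild-type libraries 1 to 5 and at 12.9, 1.53, 3.53, 4.04 and 108 TPM in knockout libraries 1 to 5. Knockout 5 was 8.34-fold above the next library, and the difference was 1.48 (SE 0.91), or 0.61 without knockout 5.

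Apoe and Vim, from the list for Müller glia and astrocytes, were also high in knockout 5, at 5651 and 2118 TPM. The rest of the list was not: Slc1a3, Rlbp1, Gfap and Sox9 were listed at 0, Aqp4 was at 0.282 TPM and Glul at 61.5 TPM. The list summed to 7831 TPM in knockout 5, and its sum was 139, 885, 86.5 and 524 TPM in knockout libraries 1 to 4 and 156 to 427 TPM in wild-type libraries. The sum of the microglial markers was highest in knockout 5 as well, at 2746 TPM. This sum was 74.2 to 2247 TPM in the other knockout and 4.14 to 2241 TPM in the wild-type libraries. Tyrobp at 1065 TPM and C1qb at 681 TPM peaked in knockout 5, while every other marker of the list peaked in another library. P2ry12 was lowest in knockout 5, at 1.15 TPM. The list's mean log2(TPM + 1) was 5.57 in knockout 5, below 6.90 in knockout 2 and 6.22 in wild-type 4. The part of other cells in the levels of Hspb1 and Hspb8 was not tested. Hspb11 (IFT25, a subunit of the cilium transport complex) was at 207, 41.0, 74.3, 6.90 and 22.0 TPM in wild-type libraries 1 to 5 and at 84.7, 27.7, 4.01, 19.3 and 10.1 TPM in knockout libraries 1 to 5, highest in wild-type 1, with a difference of -1.08 (SE 0.88). Hspb6 (HSP20) ranged over 6.97 to 37.4 TPM and differed by -0.16 (SE 0.71), and by 0.22 after median centring. Of the related crystallin genes, Cryaa was listed at 0 in every library, and Cryab was listed at 0 in 8 libraries, the exceptions being wild-type 2 with 3.38 TPM and wild-type 5 with 7.24 TPM.

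Class A and B DnaJ proteins are the general partners of HSP70. Dnaja1 was at 243, 141, 216, 102 and 36.0 TPM in wild-type libraries 1 to 5 and at 154, 216, 131, 40.6 and 54.6 TPM in knockout libraries 1 to 5. Wild-type 5, knockout 4 and knockout 5 were the 3 lowest, and the difference was -0.30 (SE 0.65). Dnaja2 was at 45.9, 81.0, 70.5, 58.7 and 14.4 TPM in wild-type libraries 1 to 5 and at 114, 192, 39.2, 20.0 and 21.9 TPM in knockout libraries 1 to 5, with 2 knockout libraries above the whole wild-type range and 2 near its lower end, and differed by 0.15 (SE 0.73). Dnaja4 stayed at 0.0570 to 6.85 TPM and differed by -0.69 (SE 0.63). After median centring Dnaja1 differed by 0.08.

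Dnajb1, the inducible HSP40 that directs HSP70 to aggregates (chr8:83608193-83612653, plus strand), was at 32.2, 18.6, 12.9, 62.2 and 82.4 TPM in wild-type libraries 1 to 5 and 26.0, 59.8, 1657, 91.6 and 55.6 TPM in knockout libraries 1 to 5. Knockout 3 was 18.1-fold above the next highest library, knockout 4, and the other 9 libraries overlapped between genotypes. The difference was 1.65 (SE 0.90, 95% interval -0.22 to 3.52), the largest of any member in the higher direction, and 0.66 (SE 0.73, limma adjusted p = 0.979) without knockout 3. Among the 13 members of the heat-inducible list, knockout 3 was also the highest library for Hspa8 and Hspd1, at 2492 and 180 TPM. It was the lowest for Hspb1, at 55.2 TPM. Hspa1a was at 7.24 TPM and Hsph1 at 31.4 TPM there. Outside the chaperones, the neurofilament gene Nefl, chosen after its values were seen, was at 94381 TPM in the same library and at 6422 to 19151 TPM in the other 9.

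Dnajb6, a DnaJ protein that holds back amyloid aggregation, was the most abundant DnaJ gene by median, at 392, 459, 464, 152 and 84.9 TPM in wild-type libraries 1 to 5 and at 442, 311, 251, 127 and 125 TPM in knockout libraries 1 to 5. The 3 libraries that stood apart were the lowest, at 84.9 to 127 TPM, and the genotypes overlapped with a difference of -0.20 (SE 0.61). It became 0.18 after median centring. The ER proteins Dnajb11 and Dnajb14 differed by -0.28 (SE 0.60) and -1.11 (SE 0.74), and the heat-inducible Dnajb4 by 0.21 (SE 0.74). Dnajb14 was at 10.8, 20.8, 27.8, 7.85 and 15.8 TPM in wild-type libraries 1 to 5 and at 11.4, 4.0, 5.59, 16.6 and 2.31 TPM in knockout libraries 1 to 5, with 4 of 5 wild-type libraries above 10 TPM and 3 of 5 knockout libraries below 6 TPM.

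The large DNAJC class holds specialists with separate jobs. Dnajc24 (DPH4, which acts in diphthamide synthesis on elongation factor 2; chr2:105966709-106003549, minus strand) was at 67.5, 94.9, 84.9, 5.23 and 12.7 TPM in wild-type libraries 1 to 5 and at 2.56, 19.9, 5.55, 24.2 and 2.04 TPM in knockout libraries 1 to 5. Wild-type 1, 2 and 3 were the 3 highest libraries, while wild-type 4 and 5, at 5.23 and 12.7 TPM, lay within the knockout range of 2.04 to 24.2 TPM. Its means were 53.0 ± 41.5 TPM among wild-type and 10.9 ± 10.4 TPM among knockout libraries (mean ± SD, n = 5 each) and its difference -2.07 (SE 0.90, 95% interval -3.95 to -0.18). It was the lone member with an unadjusted limma p below 0.05, at 0.0333.

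Dnajc5 and Dnajc6, DnaJ genes of vesicle traffic, had their lowest values in wild-type 5, knockout 4 and knockout 5. Dnajc5 (cysteine string protein, which keeps synaptic vesicle release intact; chr2:181520485-181555133, plus strand) was at 276, 192, 337, 227 and 61.1 TPM in wild-type libraries 1 to 5 and at 258, 160.0, 70.4, 47.9 and 51.4 TPM in knockout libraries 1 to 5. Wild-type 1 to 4 and knockout 1 and 2 were at 160 TPM or more, and the difference was -1.01 (SE 0.64). Dnajc6 (auxilin, which recruits HSC70 to clathrin coats in neurons; chr4:101496648-101642799, plus strand) was at 179, 229, 93.1, 94.4 and 26.2 TPM in wild-type libraries 1 to 5 and at 147, 99.1, 33.8, 28.5 and 12.9 TPM in knockout libraries 1 to 5 and differed by -1.12 (SE 0.74). Dnajc5 and Dnajc6 overlapped between genotypes. Of the 4 tested members in the vesicle and clathrin list, Hspa8 among them, 3 were lower and 1 higher in the knockout, with a median of -0.78, and the same split was found after median centring and quantile normalization.

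Dnajc2 (ribosome-associated, working on nascent chains) was at 69.4, 38.7, 44.3, 12.3 and 13.7 TPM in wild-type libraries 1 to 5 and at 350.3, 36.0, 29.8, 21.6 and 24.8 TPM in knockout libraries 1 to 5. Knockout 1 was 5.05-fold above the next library, and the difference of 0.65 (SE 0.79) became -0.08 without it. Dnajc10 (ERdj5, a disulfide reductase of the ER) had its peak in the same library, at 410.0 TPM beside 12.3 to 79.6 TPM elsewhere. Dnajc21, a factor of ribosome biogenesis, was at 345 TPM in knockout 2 and at 0.754 to 81.4 TPM elsewhere. Dnajc7, which also binds HSP90, was among the steadier DnaJ genes, at 70.4 ± 28.1 TPM among wild-type and 80.2 ± 16.1 TPM among knockout libraries (mean ± SD, n = 5 each). The last 3 genes were picked after their values were seen.

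The genotype comparison over all tested members found no call. Of 62 members, 0 passed the adjusted threshold (limma, background 0.0% of 11744 genes), and 1 was below an unadjusted p of 0.05, where the background was 3.31%. That member was lower in the knockout, with a background of 2.57% in this direction, and 0 were higher, with a background of 0.741%. No member separated the genotypes without overlap, beside a background of 0.426% of genes with the knockout below and 0.0766% with it above. In the knockout, 40 members had a lower and 22 a higher fitted value, 64.5% lower beside 67.4% of all tested genes. The median difference was -0.26 over the members and -0.31 over all tested genes. After median centring, which moved the median of all genes from -0.31 to 0.07, 25 members were lower and 37 higher with a median of 0.12. After quantile normalization 34 were lower and 28 higher, with a median of -0.07 beside -0.04 over all tested genes. The sign of the members' median was thus reversed by median centring and kept, close to 0, by quantile normalization.

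Precision was low at this number of libraries. The SE of a member's difference ran from 0.46 for Hspa8 to 1.27 for Hspa5 with a median of 0.74, and 61 of 62 intervals included 0. A fitted difference of at least 2-fold was seen for 7 members in the lower and 3 in the higher direction. The share of all tested genes at this size was not counted, so these counts are not a trait of the members. Fitted differences ran from -2.07 to 1.65 over the members and from -6.34 to 3.95 over all tested genes. By family, 9 of 14 HSP70 and HSP110 genes, 3 of 3 HSP90 genes, 3 of 5 small heat shock genes, 2 of 2 HSP60 and HSP10 genes, 2 of 4 DNAJA, 7 of 10 DNAJB and 14 of 24 DNAJC genes were lower. The counts after median centring were 6, 1, 1, 1, 1, 3 and 12 in the same order.

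**Figure D3:**
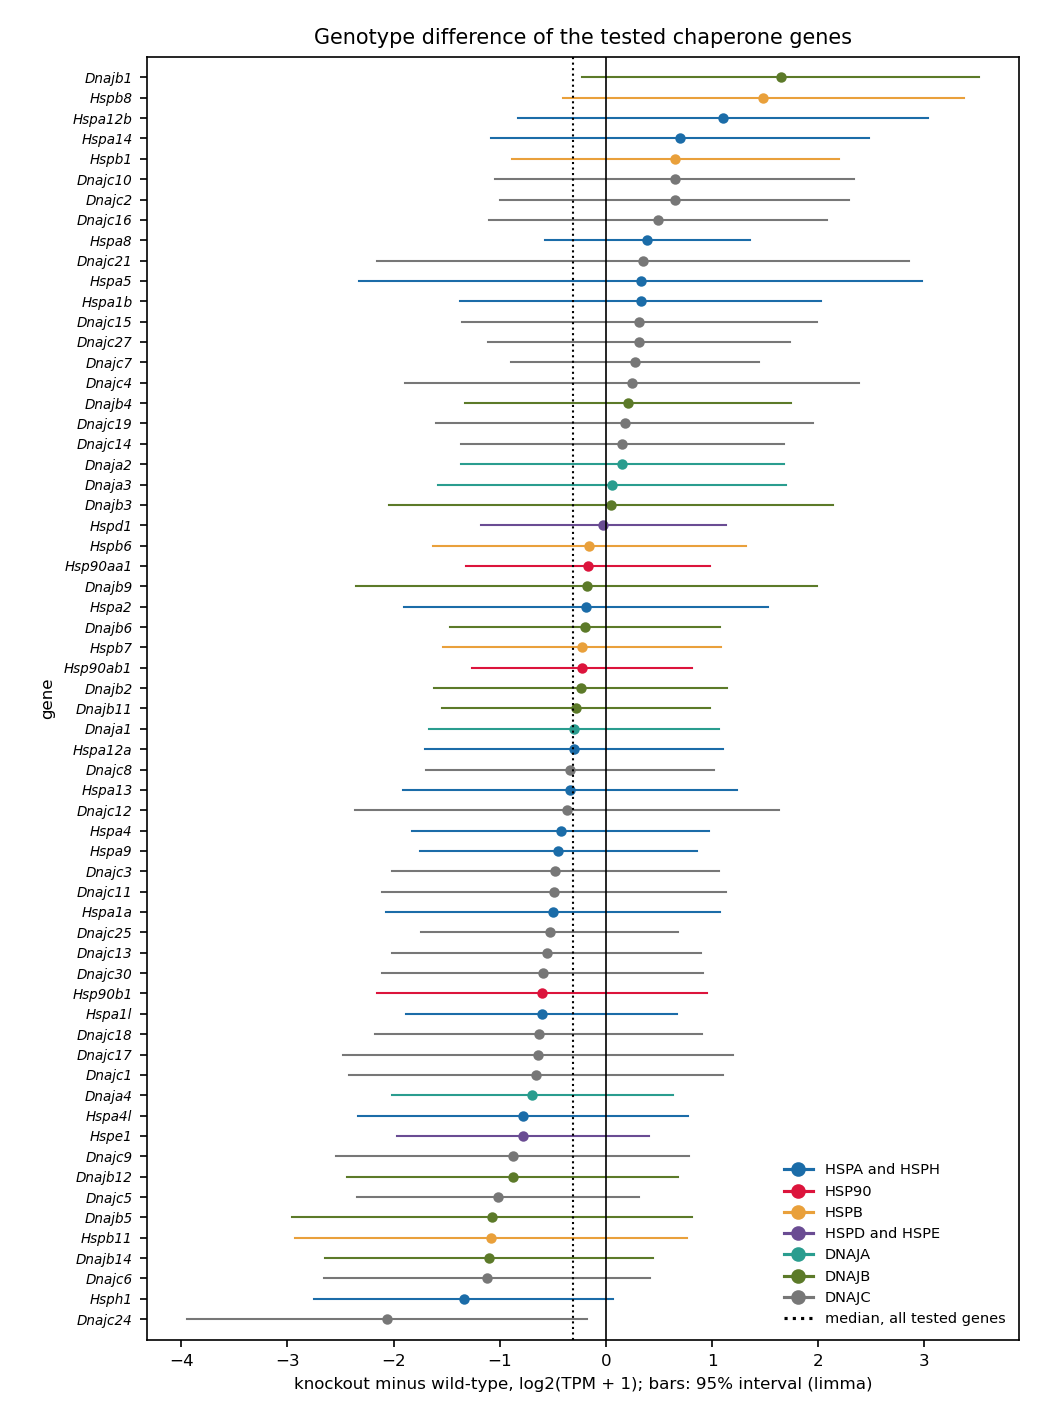
Knockout minus wild-type difference on the log2(TPM + 1) scale for the 62 tested chaperone genes, ordered by size and coloured by family; points are limma fits, bars 95% intervals and the dotted line the median of all tested genes at -0.31. Only the interval of Dnajc24, at the bottom, leaves out 0, and the widest interval is that of Hspa5.

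Peaks in 1 library occurred in a share of the chaperones near that of all tested genes. A highest library at least 3 times the next highest was found for 8 of 62 members, 12.9%, beside 11.9% of all tested genes, and at least 10 times for 2 members, Hspa5 and Dnajb1, beside 1.86%. The other 6 were Hspb8, Hspa12b, Dnajc10, Dnajc2, Dnajc21 and Dnajc9, with ratios of 8.34, 6.71, 5.15, 5.05, 4.23 and 3.55. Of the 8 peaks, 7 lay in a knockout library (87.5%), spread over knockout 1, 2, 3 and 5, beside 775 of 1401 such peaks over all tested genes (55.3%); the difference between these shares was not tested. The exception was Dnajc9, a histone chaperone, at 105 TPM in wild-type 2. In 5 members, 8.06%, 1 library lay far from the other 4 of its genotype by Dixon's rule, beside 11.3% of all tested genes. The ratio of Hspa5 was the ninth largest among all tested genes.

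The libraries that stood apart, which hold both genotypes, were compared with the others for each member. The principal component held 32.9% of the variance when computed without the members, with scores of 87.8 to 149 in wild-type 5, knockout 4 and knockout 5 and of at most -14.5 elsewhere. In those 3 libraries 16 members, 25.8%, were below all 7 others, beside 21.2% of all tested genes, and 1 member, 1.61%, was above all others, beside 2.62%. The member above was Hspb1, at 442 to 809 TPM against 55.2 to 209 TPM. The members below included all 3 genes with an ER stress element, Hspa5 (22.8 to 51.8 TPM against 55.6 TPM or more), Hsp90b1 (54.0 to 67.3 TPM against 135 TPM or more) and Dnajc3 (1.21 to 3.52 TPM against 4.53 TPM or more). Of the other ER members, Hspa13, Dnajc1, Dnajc10 and Dnajc18 were below as well. Dnajb9, Dnajb11, Dnajb12, Dnajb14, Dnajc16 and Dnajc25 did not follow the division. ER genes outside the members went both ways, in examples chosen after their values were seen. Pdia3 was at 43.8 to 51.5 TPM in the 3 libraries and at 94.9 TPM or more in the others. Creld2 was at 85.2 TPM in knockout 4 and 97.4 TPM in knockout 5, beside 14.6 TPM in wild-type 5 and at most 32.9 TPM in the 7 others. The members below also included the vesicle genes Dnajc5 and Dnajc6, the general DnaJ genes Dnaja1, Dnaja2, Dnajb4 and Dnajb6, and Hspa12a. Hspa8 did not follow this division, at 1495 to 2222 TPM in the 3 libraries and 993 to 2492 TPM in the others. In the same 3 libraries the ribosomal protein share of all TPM was 12.2% to 13.7%, beside 3.87% to 8.03% in the others, and the part of RNA quality or cell makeup in these levels was not tested.

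**Figure D4:**
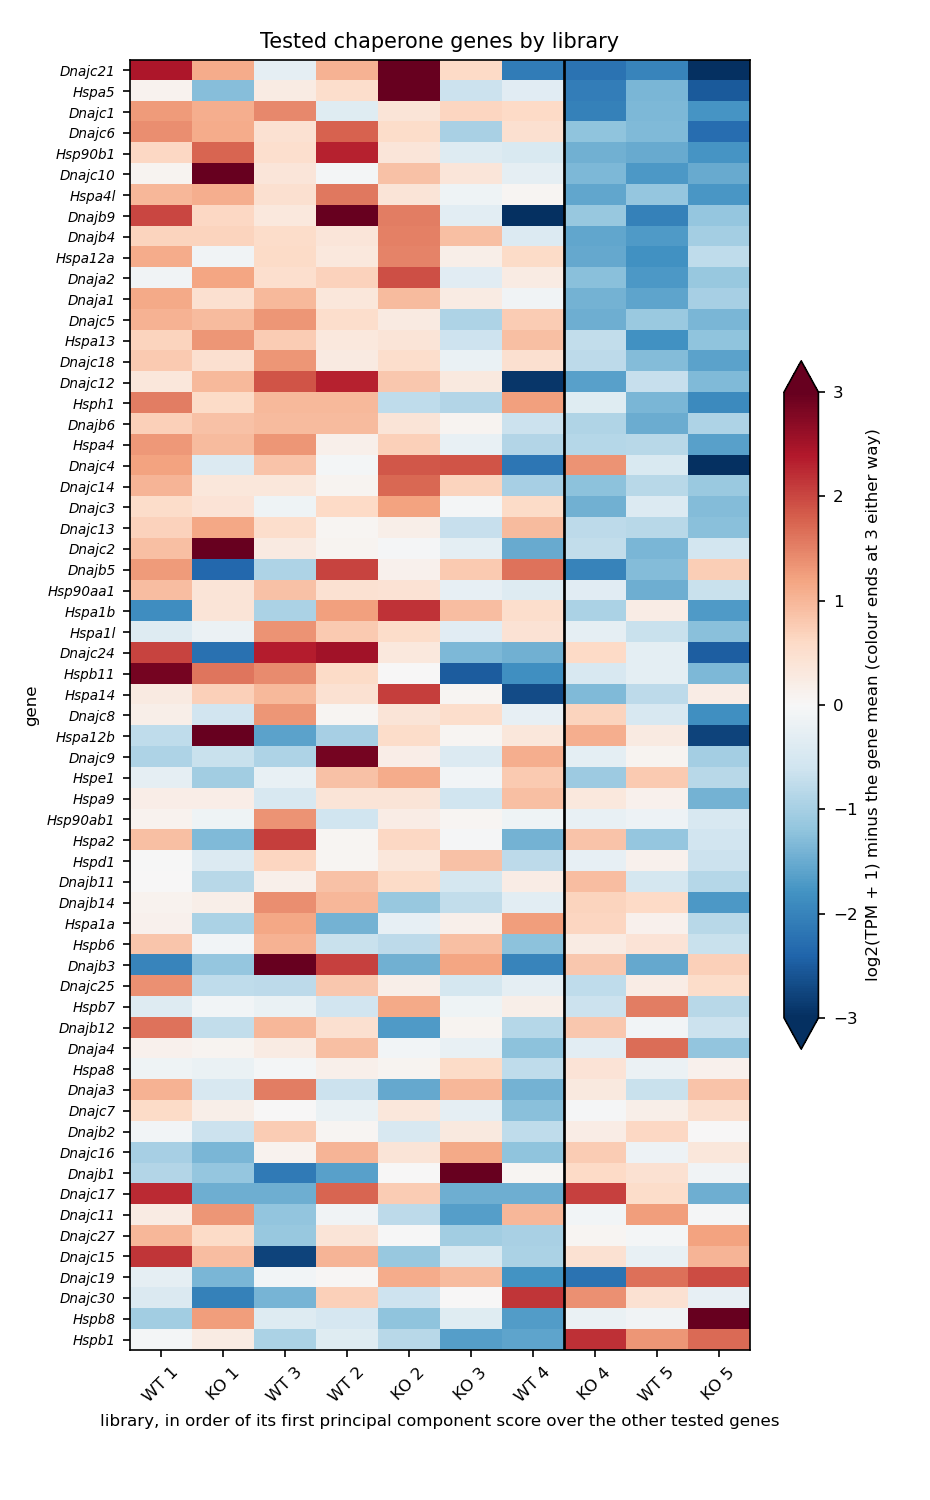
Level of each tested chaperone gene in each library, as the difference from the gene's own mean on the log2(TPM + 1) scale (colour, blue below and red above, capped at 3 either way), with libraries ordered by their score on the principal component of the other tested genes and genes ordered by their mean in the 3 libraries right of the black line. Most genes at the top are blue in those 3 libraries, 1 of which is wild-type and 2 knockout, and Hspb1 is red in all 3.

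The wider folding network was read from lists of genes that work with the members, and no list held a called gene. Of 27 co-chaperones of HSP70 and HSP90, 19 were lower and 8 higher in the knockout (median -0.41), and the split was 14 to 13 after median centring. The one with the smallest p was Bag2, an inhibitor of the ubiquitin ligase CHIP. It ranged over 4.45 to 454 TPM among wild-type and 0.516 to 32.1 TPM among knockout libraries. Wild-type 2 alone gave the 454 TPM, and the other wild-type libraries, at 4.45 to 22.2 TPM, lay within the knockout range. The difference of Bag2 was -2.28 (SE 1.08), and -2.95 to -1.22 when single libraries were left out. Of 13 genes of the cytosolic chaperonin CCT and of prefoldin, which fold actin and tubulin, 6 were lower and 7 higher (median 0.03), and 3 and 10 after median centring. Pfdn2 averaged 32.0 ± 34.7 TPM among wild-type and 68.9 ± 25.1 TPM among knockout libraries (mean ± SD, n = 5 each), a difference of 1.61 (SE 0.72). Of 21 ER folding and unfolded protein response genes 12 were lower and 9 higher (median -0.44), and 11 and 10 after median centring. Ddit3 was at 10.2 to 690.0 TPM among wild-type and 0.577 to 83.0 TPM among knockout libraries, a difference of -2.18 (SE 1.12). Wild-type 2 alone gave the 690.0 TPM, with the other wild-type libraries at 10.2 to 59.2 TPM. Leaving out single libraries moved this difference over -2.97 to -1.19. Of 14 genes of mitochondrial folding and quality control 9 were lower and 5 higher (median -0.17), and 4 and 10 after median centring. Clpb, a mitochondrial disaggregase, averaged 11.2 ± 8.55 TPM among wild-type and 2.79 ± 2.35 TPM among knockout libraries (mean ± SD, n = 5 each), a difference of -1.74 (SE 0.75). Of 3 tested heat shock factors and regulators 2 were lower and 1 was higher.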

How the data were processed

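RNA of 10 sorted cell samples, 5 of each genotype, was sequenced single end after amplification, per the labels. The deposited values are on a log10 scale, and 10 to the power of the value minus 1 gave TPM summing to 1000000 in each library. The authors used TopHat2 2.0.10, Cufflinks and build mm10, per the submitters' processing notes; how reads were counted, with which annotation and strand, is not given in the sources used here. TPM keeps no depth, so no counting interval or detection floor was computed, and precision rests on the spread of 5 libraries per genotype.

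Numbered entries (26 of 23746) were left out and 240 repeated symbols summed; no member was repeated. Genes that reached 1 TPM in 5 or more libraries were fitted on log2(TPM + 1) with limma 3.58.1 (R 4.3.3). Genotype was the sole factor, variances were moderated with a trend on the mean, and p-values were adjusted by Benjamini-Hochberg at 0.05. Differences on this scale understate changes of low genes. The fit was tested on simulated data. Satb1 had an exact permutation test. Alternatives changed the pseudocount, filter, scaling, variance model, library weights, replicate block, handling of repeated symbols and the libraries used. Sequence sharing used GENCODE M21, and promoters RefSeq on GRCm38.p6, with entries for 58 of 72 members.

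Members and lists were chosen with earlier results of these data known. Named members were the 4 most abundant per family, all heat-inducible members, those with the smallest p, and those listed at 0 despite a median of at least 10 TPM; per further list, the 2 genes with the smallest p were eligible. Other genes are said to be chosen after their values were seen. Libraries were compared with markers of ganglion cells, rods, microglia, and Müller glia with astrocytes, and with immediate early genes.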

Additional observations from a re-analysis of the deposited data

Results flagged for a closer look

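In 5 of 62 tested members, 1 library lay far from the other 4 of its genotype on the log2(TPM + 1) scale, its gap to the nearest library being more than 0.71 of the range of the genotype (Dixon's rule). Chance flags about 1 in 20 groups. A gene was counted when either genotype was flagged, so its chance rate is higher than that of a single group. Such a library was found for 11.3% of all tested genes. Hspa5 was at 21879 TPM in knockout 2, above the other 4 knockout libraries. Dnajc2 was at 350.3 TPM in knockout 1, again on the high side. Wild-type 5 was on the low side for Hspa12a at 33.5 TPM, for Hspa13, an ER-associated HSP70, at 4.48 TPM and for Hsph1 at 22.1 TPM.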

How the results depend on the processing

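Across 21 alternative fits (11 other settings and 10 that each left out 1 library) no chaperone was called, and the lowest adjusted p of any member was 0.651 (limma). TPM keeps no depth, so what depth limits is not known here. The count of called genes over the table, 0 (389 at an unadjusted p below 0.05), was 1 with the filter at 5 TPM, 1 without the mean-variance trend, 3 with library weights and 0 to 1 when single libraries were left out, reaching 1 without wild-type 3, 4 or 5. The members' median difference of -0.26 ran from -0.49 to -0.09 when single libraries were left out, and that of Satb1 from -1.77 to -0.88. Replicate numbers recur in both genotypes, and the deviations of same-numbered libraries from their genotype means had correlations of -0.032 to 0.364. Not every library correlated best with its own number, and whether same-numbered libraries share a batch was not tested. With the replicate block 0 genes and 0 members were called by limma. Below an unadjusted limma p of 0.05 were 830 genes and 3 members with the block, beside 389 genes and 1 member without it.

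Of 46 single-gene differences, 21 kept their sign in every alternative; for the other 25 the cause was not tested. Median centring gave Dnaja1 0.079, Dnajb11 0.093, Dnajb6 0.18, Hsp90aa1 0.21, Hsp90ab1 0.15, Hspa12a 0.077, Hspb6 0.22, Hspd1 0.35, Dnajb9 0.20 and Dnajb2 0.14. Quantile normalization gave Hspb6 0.19, Hspd1 0.18, Dnajb9 0.071 and Dnajb2 0.12. Library weights gave Dnaja3 -0.059, Dnajc15 -0.38, Hspa1a 0.049, Hspb6 0.048 and Hspd1 0.13, and a pseudocount of 0.1 gave Dnajc4 -0.32. Without the 3 libraries that stand apart, Dnaja3 was -0.47, Dnajc15 -0.087, Hspa4 0.00048, Hspb1 -0.012, Hspb6 0.015, Hspd1 0.30 and Dnajc3 0.12. Leaving out single libraries moved Dnaja1 over -0.73 to 0.022, Dnaja2 -0.31 to 0.49, Dnaja3 -0.29 to 0.45, Dnajb4 -0.19 to 0.63, Dnajb6 -0.59 to 0.019, Dnajb9 -0.98 to 0.62, Dnajc10 -0.078 to 1.11, Dnajc15 -0.34 to 0.89, Dnajc21 -0.73 to 1.17, Dnajc2 -0.077 to 0.95, Dnajc4 -0.27 to 1.29, Dnajc7 -0.0047 to 0.45, Hsp90aa1 -0.55 to 0.044, Hsp90ab1 -0.40 to 0.085, Hspa12a -0.79 to 0.051, Hspa1b -0.17 to 0.79, Hspa5 -1.46 to 1.0, Hspb6 -0.48 to 0.085 and Hspd1 -0.25 to 0.14.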
